A study of Mus with 4 samples.

Results

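Integrins and the proteins that tie them to actin were examined in a murine podocyte cell line that had received lentivirus encoding either active OASIS, its N-terminal part, or the fluorescent control protein Venus. OASIS, the product of Creb3l1, belongs to the CREB/ATF transcription factors and is freed from a membrane-bound precursor. The set of 35 genes comprised 13 integrin α chains, 8 integrin β chains and 14 intracellular adhesion proteins, and its members were every row of the deposited expression table that carried one of these gene symbols. They accounted for 87 probes of the 56605 gene probes on the array, and for 35 of 26893 gene symbols.

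The cells were immortalized podocytes, the epithelial cells that cover the glomerular capillaries, differentiated under nonpermissive conditions. Both groups were infected for 24 h with polybrene and had no further agent, and total RNA was taken 48 h after the vectors were added. The methods give a range of viral dose and not the dose of each vector. There were 2 Venus samples and 2 OASIS samples, each on 1 single-color Agilent array with Cy3-labeled RNA. The labels name 1 cell line and do not say whether replicates were separate cultures, so that the p-values measure the spread between these samples, which may be technical.

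Integrins are receptors made of 1 α and 1 β chain, which span the membrane and bind matrix proteins such as laminin, collagen and fibronectin. Talin and kindlin bind the tail of the β chain and switch the receptor on, the complex of integrin-linked kinase, PINCH and parvin joins it to actin, and focal adhesion kinase with its scaffolds passes the signal on. In podocytes the laminin receptor of integrin α3 and β1 holds the foot processes on the glomerular basement membrane, and loss of either chain, or of integrin-linked kinase or talin, in these cells is known to cause proteinuria.

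Levels are given as log2 intensity after subtracting the 75th percentile of the same array, so that 0 is the level below which 75% of the spots lay. A level belongs to 1 probe and cannot be set against that of another probe. A probe was tested when both arrays of 1 group or more had its signal well above background. Differences were tested with limma, which draws the spread of each probe toward that of all probes tested. The standard errors (SE) and p-values thus do not rest on a probe's own replicates alone. The p-value was adjusted by Benjamini-Hochberg over 31598 probes. A gene was represented by its brightest probe. A gene was called at an adjusted p under 0.1. The stricter threshold, taken from the study's methods, also asked for a fold change over 2.0 or under 0.5. An exact permutation test of 2 against 2 arrays cannot go below p = 0.333. In such bulk samples, fewer cells of a type and less RNA per cell cannot be told apart.

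The signal was well above background on 33938 to 34418 of 59305 spots per array, and no spot was saturated. Arrays of the same group correlated at 0.997 for Venus and 0.995 for OASIS over the probes tested, and arrays of different groups at 0.973 to 0.978. Of 14 podocyte marker genes on the array, 10 were well above background on all arrays, whereas Ptpro and Tcf21 were so on none. So were 6 of 7 mesangial and myofibroblast markers, 5 of 9 tubular markers and 1 of 7 endothelial markers on all arrays. The podocyte count alone thus does not identify the cells. The probe for Creb3l1 differed by -0.17 (adjusted p = 0.293) and does not test the labels, since the vector need not carry the sequence it reads.

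Of the 35 genes, 31 had a tested probe, and 60 of their 87 probes were tested. The integrin genes that rose past the threshold were Itgb4 and Itgb2, 2 of 31 genes tested (6.45%), against 6.18% of all 16318 genes tested. None of the 31 fell past it, against 1.86% of all genes, and at an unadjusted p under 0.05 with the same fold limit the count was also 0. Without the fold limit, 3 members were higher with OASIS, which were Itgb2, Itgb4 and Itgb7. That was 9.68% of the members, against 18.5% of all genes. In the same test 9 were lower, which were Itga2b, Itga6, Itgb6, Tln2, Lims1, Parva, Pxn, Bcar1 and Zyx. That was 29.0% of the members, against 18.3% of all genes. With Venus replicate 1 or Venus replicate 2 left out, 1 member was called lower, Lims1. Fewer of all genes were also called with either Venus replicate left out. Under normexp background correction 7 members were called higher and 8 lower. That setting called 6964 of all 16318 genes in either direction, against 6010 in the main test.

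Both OASIS arrays lay above both Venus arrays for 10 members, or 32.3%, where 31.3% of all genes did so. They lay below for 13, or 41.9%, where 39.7% of all genes did so, and the groups overlapped for the remaining 8. The median log2 fold change was -0.08 for the members, from -0.79 for Lims1 to 1.91 for Itga11, and -0.06 for all genes tested. The value of Itga11 was not called and drew on a Venus array not well above background. The changes of the receptor chains thus lay on both sides of 0, while those of the intracellular proteins lay mainly below it. The median was -0.00 for the 10 α chains tested, 0.16 for the 8 β chains and -0.22 for the 13 intracellular proteins tested.

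**Figure D1:**
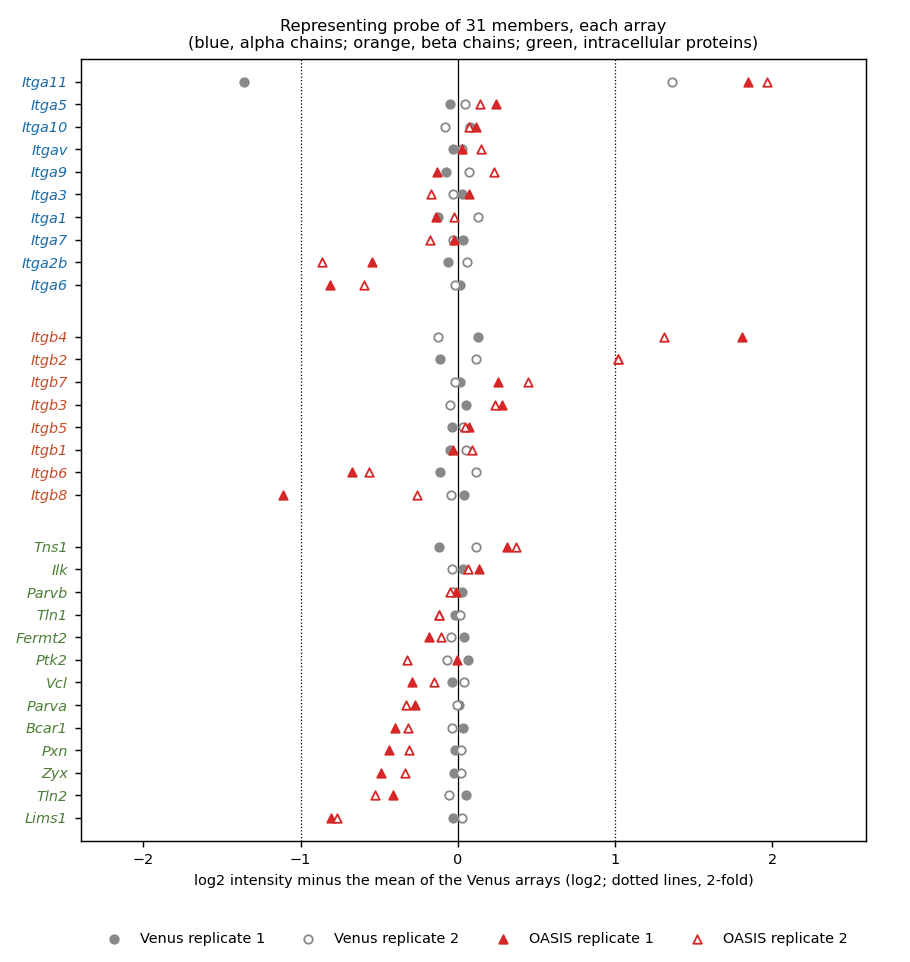
Level of the representing probe of each of the 31 members on each of the 4 arrays, as log2 intensity minus the mean of the Venus arrays; grey circles are Venus arrays, red triangles OASIS arrays, and dotted lines mark 2-fold. Itgb4, Itgb2 and Itga11 stand to the right of the 2-fold line with both OASIS arrays. Itga11 was not called, and its Venus arrays lie apart from each other. Of the 13 intracellular proteins 9 have both OASIS arrays below both Venus arrays, where 39.7% of all genes did so.

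**Figure D2:**
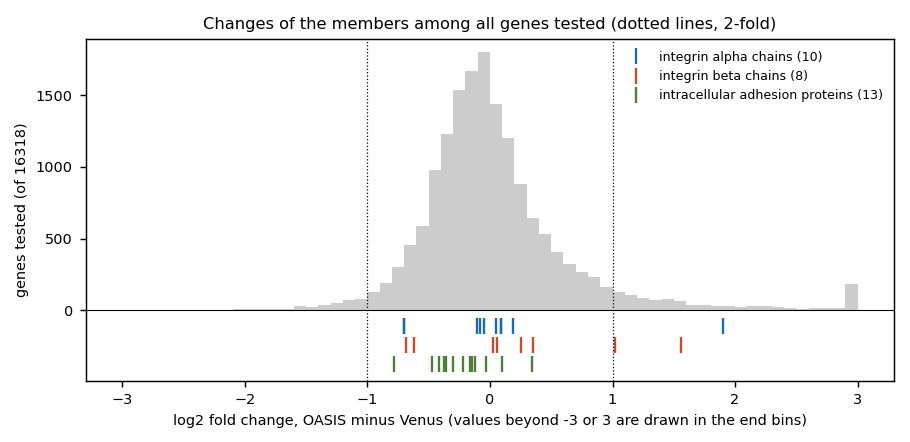
Distribution of the log2 fold change, OASIS minus Venus, over the 16318 genes tested (grey bars, number of genes per bin of 0.1) with the 31 members as ticks by class. The members spread from -0.79 to 1.91 within the range of the other genes, and 2 called members lie beyond the upper 2-fold line. The highest value, that of Itga11, was not called and drew on a Venus array not well above background.

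Itgb4 on band 11qE2 encodes integrin β4, which pairs only with the α6 chain and anchors epithelial cells to laminin through hemidesmosomes. Its level was -3.12 and -3.38 with Venus and -1.44 and -1.94 with OASIS. Both OASIS arrays were higher than both Venus arrays, and the difference was larger than the spread within either group. The log2 fold change was 1.56 (SE 0.21, limma adjusted p = 0.0132), or 2.95-fold. This rested on 1 probe, A_51_P408382, since the other 2 probes for Itgb4 were well above background on no array.

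Itga6 on band 2qC3 encodes integrin α6, the partner of β4 and, with β1, a laminin receptor in its own right. Its brightest probe, A_55_P2015670, lay at 3.07 and 3.04 with Venus and at 2.24 and 2.46 with OASIS. By this probe Itga6 fell, with no overlap between the groups (log2 fold change -0.70, SE 0.12, limma adjusted p = 0.0224). A second probe, A_55_P1958840, lay at 1.68 and 1.66 with Venus and at 3.29 and 3.04 with OASIS. By that probe Itga6 rose past the threshold, again with no overlap (log2 fold change 1.498, SE 0.13, limma adjusted p = 0.00651).

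The deposited table assigned the probe that fell to a RefSeq transcript and the probe that rose to the Ensembl transcript ENSMUST00000139760. The difference between the changes of the 2 probes within the same arrays was 2.20 on the log2 scale (SE 0.19, limma adjusted p = 0.0101, over all such pairs). A probe assigned to a different RefSeq transcript, A_65_P04508, fell by 0.74 on the log2 scale (adjusted p = 0.0226). The remaining RefSeq probe, A_55_P2742291, stood at -0.16 (adjusted p = 0.289). The faintest, A_52_P324934, was assigned to a different Ensembl transcript from the probe that rose. It had only a bound, at least 1.28-fold lower with OASIS (adjusted p = 0.0433), as both OASIS arrays were not well above background. A bound was taken as the mean of the brighter group over the lowest signal well above background, or over the probe's own signal where that was higher. An adjusted p given beside a bound belongs to the fitted difference, which used signal not well above background. It does not test the bound.

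Itgb2 on band 10qC1 encodes integrin β2, known as the common β chain of leukocyte integrins. Its single probe lay at -4.23 and -4.01 with Venus and at -3.10 on each OASIS array. The OASIS arrays were higher than both Venus arrays, with a log2 fold change of 1.02 (SE 0.12, limma adjusted p = 0.0109), or 2.03-fold. The fold was thus close to the limit of the threshold, and without Venus replicate 1 the value was 0.91. Normexp background correction gave 0.60, which was under 2-fold.

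The α chains that pair with β2 did not share a direction. Itgax, which encodes αX, had a level of -6.56 and -7.86 with Venus, neither well above background, and of -4.57 and -5.56 with OASIS. It was at least 2.12-fold higher with OASIS (limma adjusted p of the fitted difference = 0.0525). Itgam, which encodes αM, fell by 0.51 on the log2 scale (adjusted p = 0.0428). Itgal, which encodes αL, stood at 0.40 (adjusted p = 0.104), and Itgad was not well above background on any array. Among 9 leukocyte marker genes on the array, 6 were well above background on all arrays (Cd14, Cd3e, Cd68, Csf1r, Lyz2 and Ptprc), and Adgre1 was so on none. The summed linear level of these markers was 6.56 and 6.74 with Venus and 6.21 and 7.29 with OASIS, and its part in the values of Itgb2 and Itgax was not tested. Of the 6 markers tested singly, 1 was called higher (against 18.5% of all genes) and 1 lower (against 18.3%). Their log2 fold changes ran from -0.37 to 0.74.

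Itga1 on band 13qD2.2 encodes integrin α1, a collagen and laminin receptor with β1. Its brightest probe, A_52_P459929, lay at -1.30 and -1.04 with Venus and at -1.31 and -1.19 with OASIS, so that the groups overlapped (log2 fold change -0.08, limma adjusted p = 0.693). Another probe, A_52_P601333, lay at -3.43 and -3.05 with Venus and at -2.15 and -1.67 with OASIS. By that probe both OASIS arrays were higher and the gene rose past the threshold (log2 fold change 1.33, SE 0.22, limma adjusted p = 0.0210). The deposited table assigned it to the Ensembl transcript ENSMUST00000061673 and the brightest to a RefSeq transcript. The changes of the 2 probes differed by 1.41 on the log2 scale (adjusted p = 0.0118), and the other tested probe stood at -0.06. Under normexp the rise of A_52_P601333 was 0.89, less than 2-fold.

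Itgb8 on band 12qF2 encodes integrin β8, which pairs with αv and binds latent TGF-β. Its brightest probe, A_66_P139280, lay at -3.98 and -4.06 with Venus and at -5.13 and -4.28 with OASIS (log2 fold change -0.69, SE 0.30, limma adjusted p = 0.158). The OASIS arrays were lower but far apart from each other. The second tested probe, A_55_P1998244, lay at -4.95 and -4.74 with Venus and at -7.21 and -5.75 with OASIS. By that probe Itgb8 fell past the threshold (log2 fold change -1.64, SE 0.49, limma adjusted p = 0.0759), with only 1 OASIS array well above background. It stood at -0.91 without OASIS replicate 1, at -2.37 without OASIS replicate 2 and at -0.29 under normexp. Without Venus replicate 1 or Venus replicate 2 it was not called (adjusted p = 0.172 and 0.204).

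**Figure D3:**
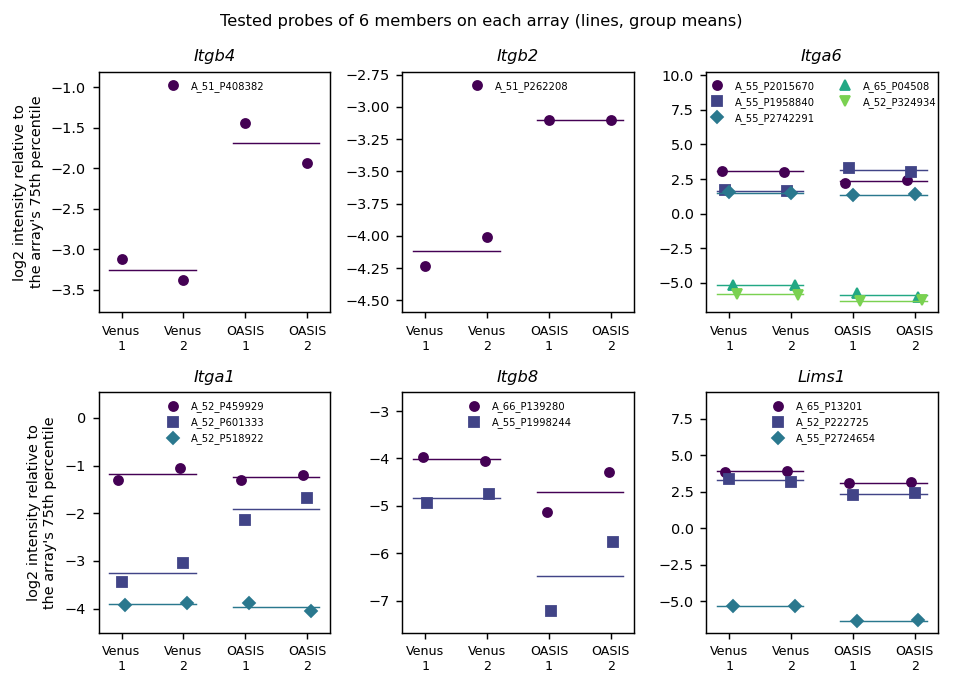
Levels (log2 intensity relative to the 75th percentile of the array) of all tested probes of Itgb4, Itgb2, Itga6, Itga1, Itgb8 and Lims1 on each array; short lines are group means. In Itga6 and Itga1 1 probe rises by 1.498 and 1.33 on the log2 scale while the brightest does not rise, whereas the 3 probes of Lims1 all lie lower with OASIS.

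The chains of the main podocyte laminin receptor were not called by their brightest probes. Itga3 on band 11qD, which encodes α3, lay at 4.60 and 4.54 with Venus and at 4.65 and 4.40 with OASIS. The groups overlapped, and the log2 fold change was -0.05 (95% interval -0.38 to 0.29, limma adjusted p = 0.809). Itgb1 on band 8qE2, which encodes β1, the partner of most matrix-binding α chains, lay at 6.71 and 6.81 with Venus and at 6.73 and 6.85 with OASIS. These groups overlapped as well, with a log2 fold change of 0.03 (95% interval -0.26 to 0.32, limma adjusted p = 0.873). A second RefSeq probe for Itgb1, A_66_P113059, lay at 4.92 and 4.98 with Venus and at 4.46 on both OASIS arrays. By that probe Itgb1 fell (log2 fold change -0.50, SE 0.10, limma adjusted p = 0.0313), and its change differed from that of the brightest probe by -0.52 (adjusted p = 0.0386).

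Itgav and Itgb3 encode the αv and β3 chains, which together form the vitronectin receptor. Itgav on band 2qD lay at 3.97 and 4.03 with Venus and at 4.03 and 4.15 with OASIS (log2 fold change 0.09, 95% interval -0.19 to 0.37, limma adjusted p = 0.584). Itgb3 on band 11qE1 lay at -1.37 and -1.47 with Venus and at -1.14 and -1.19 with OASIS (log2 fold change 0.26, 95% interval -0.02 to 0.53, limma adjusted p = 0.140). Both OASIS arrays lay above both Venus arrays for each gene, for Itgav by a narrow margin. A second probe for Itgb3 fell by 0.64 on the log2 scale (adjusted p = 0.0489), so that the 2 probes differed by -0.89 (adjusted p = 0.0254).

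Itga2b on band 11qE1 encodes αIIb, the platelet partner of β3. It lay at -4.08 and -3.96 with Venus and at -4.57 and -4.88 with OASIS, without overlap. It fell by 0.70 on the log2 scale (SE 0.15, limma adjusted p = 0.0339). Of 6 platelet and megakaryocyte markers 3 were well above background on all arrays, and Gp1ba, Gp9 and Pf4 were so on none. Their summed linear level was 0.872 and 0.768 with Venus and 0.746 and 0.686 with OASIS, and its part in the value of Itga2b was not tested. Of the 3 markers tested singly, 1 was called higher (against 18.5% of all genes) and none lower (against 18.3%).

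Itgb6 on band 2qC1.2 encodes β6, an epithelial partner of αv. Its level was -4.05 and -3.82 with Venus and -4.61 and -4.50 with OASIS, and both OASIS arrays were lower. It fell by 0.62 on the log2 scale (SE 0.13, limma adjusted p = 0.0338). Itgb7, which encodes the β7 chain of lymphocyte integrins, rose by a log2 fold change of 0.35 (adjusted p = 0.0922), and its second probe stood at 0.17. The call of Itgb7 was kept under 6 of 16 alternative settings. Itgb5, a further partner of αv, stood at 0.06.

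Among the other α chains, Itga5, the fibronectin receptor chain, stood at 0.19 (adjusted p = 0.252), and Itga7, a laminin receptor chain of muscle, at -0.10. Itga9 stood at 0.05 and the collagen receptor chain Itga10 at 0.09. Itga11, another collagen receptor chain, had the highest log2 fold change of the members, 1.91 (SE 0.90, limma adjusted p = 0.188), and was not called. Its level was -8.27 and -5.55 with Venus, 1 of them well above background, and -5.06 and -4.95 with OASIS. Without Venus replicate 2 it stood at 3.27, but the Venus array left in that fit was not well above background. Over 15 alternative settings its log2 fold change ran from 0.29 to 3.27. Itga2, Itga4 and Itga8 were not tested, with 2, 6 and 2 probes, of which 1 probe for Itga8 was well above background on 1 OASIS array and the others on none.

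Of the 13 intracellular proteins tested 6 fell by their representing probes (46.2%), against 18.3% of all genes, and none rose, against 18.5%. Of these falls, those of Lims1 and Tln2 had an adjusted p under 0.05. Those of Pxn, Bcar1, Zyx and Parva had one from 0.0579 to 0.0914, and each was called under 10 or fewer of 16 alternative settings. By a probe that did not represent the gene, Parva and Tns1 were called higher (limma adjusted p = 0.0216 and 0.0487). The largest fall was that of Lims1 on band 10qB4, which encodes PINCH1, the adaptor that links integrin-linked kinase to its partners. Its brightest probe lay at 3.88 and 3.93 with Venus and at 3.10 and 3.14 with OASIS. The OASIS arrays were lower than both Venus arrays, with a log2 fold change of -0.79 (SE 0.10, limma adjusted p = 0.0119). A second probe gave -0.93 (adjusted p = 0.0155), and the last, faint in the OASIS samples, was at least 1.77-fold lower (adjusted p = 0.00754). The test within arrays called no difference between the change of the brightest probe and those of the others (adjusted p = 0.581 and 0.255). With 2 arrays a group it cannot show that the changes were equal, and the last probe had no measured fold.

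The partners of PINCH1 moved less. Ilk on band 7qE3, which encodes integrin-linked kinase, lay at 3.85 and 3.78 with Venus and at 3.95 and 3.88 with OASIS (log2 fold change 0.10, 95% interval -0.17 to 0.37, limma adjusted p = 0.515). Parva, which encodes α-parvin, fell by 0.30 on the log2 scale by its brightest probe (adjusted p = 0.0914) and rose by 0.59 by a second (adjusted p = 0.0216). The 2 probes were assigned to the same RefSeq transcript and differed by 0.89 (adjusted p = 0.0127). Parvb, which encodes β-parvin, stood at -0.03 by its brightest probe and fell by 0.63 on the log2 scale by a second (adjusted p = 0.0440).

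Of the activators, Tln1 on band 4qB1 encodes talin 1 and lay at 5.66 and 5.69 with Venus and at 5.56 on each OASIS array. Both OASIS arrays were lower, but the change was not called (log2 fold change -0.12, 95% interval -0.38 to 0.14, limma adjusted p = 0.420). Tln2, its homolog, fell by 0.47 on the log2 scale (adjusted p = 0.0434), with a second probe at -0.29. Fermt2, which encodes kindlin-2, stood at -0.15 (adjusted p = 0.356). Fermt1, the kindlin of surface epithelia, had 1 probe that was well above background on no array.

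Ptk2 on band 15qD3 encodes focal adhesion kinase. It lay at -0.39 and -0.53 with Venus and at -0.46 and -0.79 with OASIS, with overlap (log2 fold change -0.16, 95% interval -0.56 to 0.23, limma adjusted p = 0.465). Its 2 other probes both stood at 0.19. The scaffolds of this kinase fell: Pxn, which encodes paxillin, by 0.37 on the log2 scale (adjusted p = 0.0669), and Bcar1, which encodes p130Cas, by 0.36 (adjusted p = 0.0685). The second probe for Bcar1 fell by 0.69 on the log2 scale (adjusted p = 0.0232), and that for Pxn stood at -0.73 (adjusted p = 0.126).

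Among the actin linkers, Vcl on band 14qA3 encodes vinculin and lay at 5.12 and 5.20 with Venus and at 4.87 and 5.01 with OASIS. Both OASIS arrays were lower, and the change was not called by this probe (log2 fold change -0.22, 95% interval -0.51 to 0.07, limma adjusted p = 0.203). A second probe for Vcl fell by 0.73 on the log2 scale (adjusted p = 0.0669). Zyx, which encodes zyxin of mature adhesions, fell by 0.41 on the log2 scale (adjusted p = 0.0579), and its second probe stood at 0.05. Tns1, which encodes tensin 1 of fibrillar adhesions, had probes at 0.34 and -0.48 that were not called (adjusted p = 0.114 and 0.105) and a last that rose by 0.59 (adjusted p = 0.0487).

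Values were also compared between the probes of a gene. By probe, 5 of 60 member probes passed the threshold (8.33%), in either direction, against 8.34% of all 31598 probes tested. Of these, the probes of Itgb2 and Itgb4 represented their genes, and those of Itga1, Itga6 and Itgb8 did not. In 21 members more than 1 probe was tested, which gave 29 pairs of the brightest with another probe. In 11 pairs, from 10 genes, the 2 changes differed at an adjusted p under 0.1 (37.9%), against 26.8% of the 10812 such pairs on the array. In 2 pairs, those of Itga1 and Itga6, they also differed over 2-fold (6.90%), against 10.5% of all pairs. Probes called in opposite directions were found in 2 members, Itga6 and Parva.

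**Figure D4:**
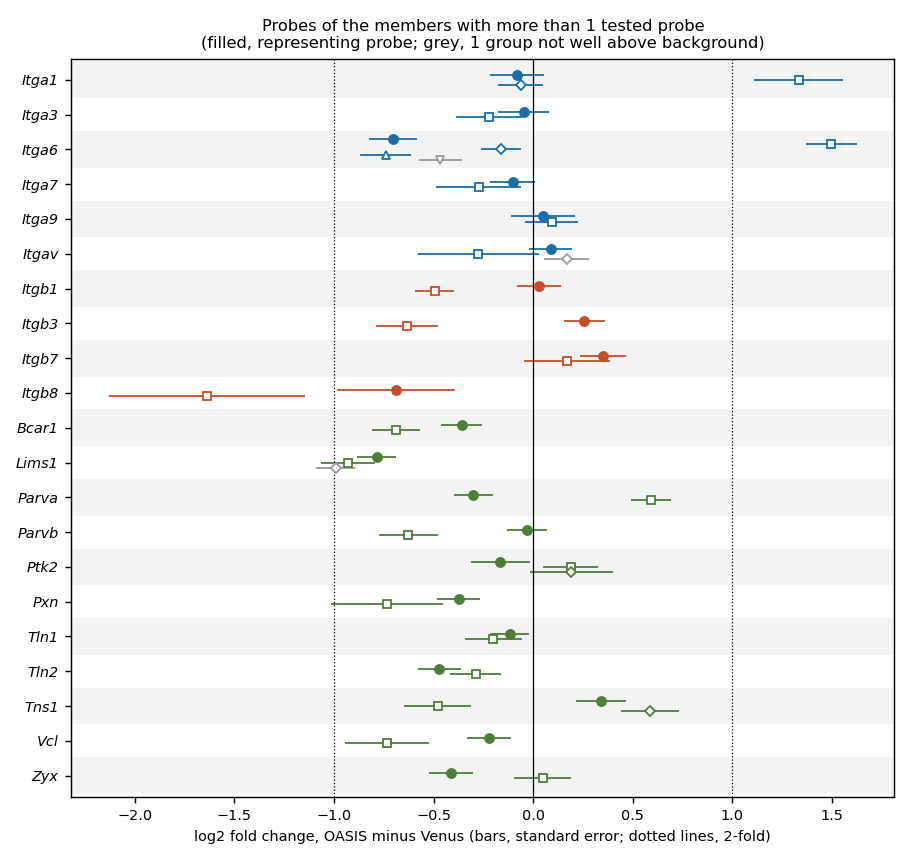
Log2 fold change, OASIS minus Venus, of each tested probe of the 21 members with more than 1 tested probe; bars are standard errors, filled symbols the brightest probe, and grey symbols probes with 1 group not well above background. The probes of Lims1, Bcar1 and Tln2 lie on 1 side of 0, whereas those of Itga6 reach from -0.74 to 1.498 and those of Parva lie at -0.30 and 0.59.

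Other genes of integrin adhesion were then counted by the same test. Of 34 further adaptors and actin linkers tested, 7 fell (20.6%, against 18.3% of all genes) and none rose (against 18.5%). At the threshold 1 fell (2.94%, against 1.86%), Sorbs2, which encodes an actin-bound adaptor (log2 fold change -1.66, limma adjusted p = 0.00795). The share that fell was near that of all genes, and the median of the list was -0.20. Of 29 kinases, exchange factors and GTPases, 4 rose (13.8%, against 18.5% of all genes) and 7 fell (24.1%, against 18.3%). The threshold was passed by Apbb1ip alone (3.45%, against 6.18%), which encodes RIAM, a protein that brings talin to the membrane with Rap1 (log2 fold change 1.16, limma adjusted p = 0.0100).

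Of 28 matrix ligands tested, 4 rose (14.3%, against 18.5% of all genes) and 4 fell (14.3%, against 18.3%), and the median was -0.14. All 4 rises passed the threshold (14.3%, against 6.18% of all genes), that of Emilin1 by its fitted value. Col1a1 and Col1a2, the chains of type I collagen, rose by log2 fold changes of 6.08 and 2.71, and Tgfb3, whose latent form is bound by αv integrins, by 2.16. Emilin1, a ligand of α4 and α9 integrins, was at least 4.77-fold higher with OASIS, as neither Venus array was well above background. The limma adjusted p of 0.00678 belongs to its fitted difference and does not test this bound. Lama2, a laminin chain, was the 1 fall past the threshold (3.57%, against 1.86%), also by its fitted value (adjusted p = 0.0494). Its bound, at least 1.74-fold lower, did not reach 2-fold. The receptor chains that bind type I collagen, Itga1, Itga2, Itga10 and Itga11, held no called change by their representing probes, and Itga2 was not tested. Of 5 further integrin chains 4 were tested. Only Itgax was called higher (1 of 4, against 18.5% of all genes), and it also passed the threshold (25%, against 6.18%). Both rested on its fitted value, as neither Venus array was well above background. Itgam and Itgae fell (2 of 4, against 18.3% of all genes), the last by 0.61 on the log2 scale (adjusted p = 0.0848).

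**Figure D5:**
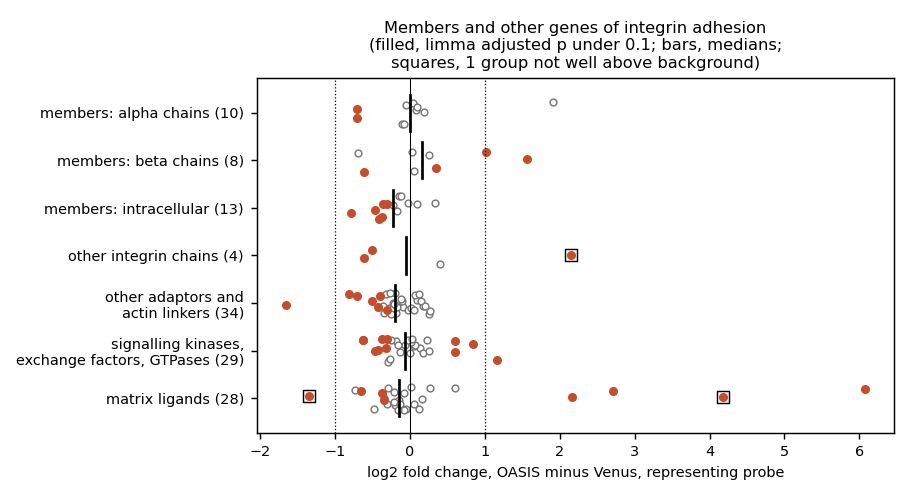
Log2 fold change, OASIS minus Venus, of the representing probe of each tested member and of each tested gene of 4 further lists; filled points have a limma adjusted p under 0.1, bars are medians, and a square marks a gene with 1 group not well above background, whose fitted value is no measured fold. The called intracellular members and the called adaptors lie below 0, and the largest rise among the lists is that of the matrix ligand Col1a1 at 6.08.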

How the data were processed

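RNA from 4 samples was hybridized to Agilent SurePrint mouse arrays, and per the file headers Agilent Feature Extraction 12.1.0.3 gave each spot's background-corrected intensity. A second table deposited by the authors held each intensity after scaling, a detection score, gene symbols and bands, from which the names were taken. A RefSeq gene table gave the same symbol for all 35 members. The array's build was not that of the reference table, so that no coordinates are given.

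Control and outlier spots were left out, and the log2 intensity minus the array's 75th percentile was averaged per probe. A probe counted as well above background when at least 0.5 of its spots did. Groups were compared with limma 3.58.1 in R 4.3.3 (lmFit, eBayes, no covariates). Another limma fit tested the difference between probes of a gene and was added after seeing that probes disagreed. Members and lists were chosen with earlier results of these data known. Values per array were given for members with a probe past the threshold, members called with a fold over 1.5, and Itga3, Itgb1, Itgav, Itgb3, Ilk, Tln1, Vcl and Ptk2. Others were given by fold change, Itga11 with its arrays after its values were seen. From other lists the genes past the threshold were named, and the partners of β2 after their values were seen. The number of arrays limits the precision. The scripts were tested on simulated data. Some marker genes are not reported here.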

Additional observations from a re-analysis of the deposited data

How the results depend on the processing

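Of the called changes, that of Lims1 was called under all 16 alternatives (-0.90 to -0.76), and those of Itgb4 (1.14 to 1.81) and Itgb2 (0.60 to 1.14) under 15. The others were called less often. Those of Itga6, Itga2b, Itgb6 and Tln2 were called under 12, those of Pxn and Bcar1 under 10, those of Zyx and Parva under 8, and that of Itgb7 under 6. The study's methods name a t-test among those for comparing 2 groups, but no test for the arrays. Under a t-test with Benjamini-Hochberg adjustment, 0 member genes and 0 member probes passed the threshold, 0 were higher and 1 was lower (Lims1). At an unadjusted p under 0.05 the same test gave 2 genes and 4 probes past the fold, 3 higher and 9 lower. Normexp gave 7 genes higher and 2 probes past the threshold, an intensity trend 5 higher, no filter on dim probes 4 lower, and an adjusted p under 0.05 gave 5 lower. With 1 array left out, where the single array was taken to vary as the other group did, the genes past the threshold were 2 to 4, those higher 3 to 4, those lower 1 to 8 and the probes past the threshold 3 to 10. Without Venus replicate 1, and without Venus replicate 2, only Lims1 was lower. In both, and under normexp, the second probe of Itga6 became its brightest and Itga6 counted as higher. The number of genes past the threshold among all genes was 1313, and was 790 under normexp and 399 under the t-test. Without the fold limit, 6010 of 16318 genes were called in the main test, 6964 under normexp and 1173 under the t-test. The count was 7235 with an intensity trend, 7085 with the replicate block and 3827 at an adjusted p under 0.05. Without the filter on dim probes it was 3906 of 26893. With the replicate block, 2 genes and 5 probes passed the threshold, 4 were higher and 9 lower. Arrays with the same number deviated together (correlation 0.259), but 2 pairs do not show that the numbers pair the samples.

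Directions reversed under the mean of a gene's probes for Itga1 (0.40), Itgav (-0.0071), Itgb1 (-0.23), Itgb3 (-0.19), Ptk2 (0.0716) and Parva (0.14), and under normexp for Parvb (0.0450). With 1 array left out, Itga1 ranged from -0.21 to 0.0480, Itga3 from -0.17 to 0.0731, Itga9 from -0.13 to 0.23 and Itgb1 from -0.0322 to 0.0881. Of these only Parva had been called. Causes were not tested.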
